A study of Homo sapiens with 24 samples.

Results

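Heat shock proteins, their cochaperones and the heat shock factors were followed by RNA-seq in T-47D cells, an ER-positive human breast cancer line, of which clones with WT ESR1 were set against clones with a Y537S or a D538G change at the endogenous locus. The set held 47 genes of the 26364 in the count tables, chosen by symbol: 10 of the HSP70 and HSP110 family, 3 of HSP90, 16 of HSP40 (DNAJ), 3 small heat shock proteins, 2 chaperonin genes, 4 BAG genes, 7 further HSP70 and HSP90 cochaperones and 2 heat shock factors. There were 24 libraries in 12 conditions of 2 libraries each. WT, Y537S and D538G cells all received a mimic negative control and the miR-301b mimic. The miR-331 mimic was given to WT and Y537S cells, the miR-181c mimic to WT and D538G cells, and the let-7f inhibitor with an inhibitor negative control to Y537S cells. Each oligonucleotide was transfected at 10 nM, cells were harvested after 24 h, and all groups were kept in hormone-deprived medium, so WT ER had no added estrogen. The 2 libraries of a condition came from 2 clones of that genotype (mutation heterozygous), the same clones in every treatment. A genotype is therefore represented by 2 clones, and a property of the clones cannot be told apart from an effect of the mutation. In 10 libraries the genotype label read Y573S where the titles read Y537S, and the titles were followed.

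HSP70 proteins bind unfolded segments of client proteins in a cycle of ATP hydrolysis that J-domain (HSP40) proteins start and that nucleotide exchange factors, among them the BAG and HSP110 proteins, end. HSP90 takes over later folding steps of clients such as steroid hormone receptors, ER included, with the help of cochaperones: STIP1 carries clients from HSP70 to HSP90, PTGES3 (p23) holds the closed HSP90 complex, AHSA1 speeds its ATPase, CDC37 brings kinases, and the ubiquitin ligase STUB1 (CHIP) sends clients to the proteasome. HSF1 is the transcription factor that raises many of these genes under proteotoxic stress, and microRNAs lower mRNAs whose 3′UTR pairs with bases 2 to 8 of the microRNA, its seed.

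The 4 microRNAs that were mimicked or inhibited are printed 5′ to 3′ as RNA from RefSeq (GRCh38.p14), with the seed in capitals, because each member was searched for the complement of these 7 bases; the 4 seeds differed from each other.
miR-301b-3p: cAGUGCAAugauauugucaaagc
miR-331-3p: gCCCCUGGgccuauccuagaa
miR-181c-5p: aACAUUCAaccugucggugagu
let-7f-5p: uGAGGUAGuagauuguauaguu

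All 47 members had an annotated 3′UTR, and 18742 genes of the tables had one. The miR-301b match TTGCACT lay in the 3′UTR of 5 members (DNAJA1, DNAJC3, HSPA2, HSPA8 and PTGES3), 10.6% of them, beside 14.2% of all genes with a 3′UTR. The miR-331 match CCAGGGG lay in 6 members (BAG1, DNAJB1, DNAJB2, DNAJB5, STUB1 and TRAP1), 12.8% beside 14.1%. The miR-181c match TGAATGT lay in 13 members (BAG2, BAG4, CHORDC1, DNAJA4, DNAJB1, DNAJB14, DNAJC3, DNAJC7, HSF2, HSPA13, HSPA4L, HSPA9 and HSPH1), 27.7% beside 19.5%. The let-7f match CTACCTC lay in 3 members (BAG1, DNAJA2 and DNAJC10), 6.4% beside 9.8%. A match of letters is a description and not a shown binding site. The matches of members described further on are printed from hg19 on the gene's strand, with the match in capitals.
PTGES3, miR-301b match, chr12:57057545-57057551, minus strand: cagatttgtatTTGCACTgtcagtatggc
HSPA8, miR-301b match, chr11:122928268-122928274, minus strand: aggaaataacaTTGCACTttataaacact
DNAJC3, miR-301b match, chr13:96446964-96446970, plus strand: aaccggttttgTTGCACTtgtctgtggct
STUB1, miR-331 match, chr16:732518-732524, plus strand: ggcgtcctggtCCAGGGGagccctgggca
DNAJC7, miR-181c match, chr17:40128692-40128698, minus strand: cagtttaatctTGAATGTggaaacagttc
DNAJA4, miR-181c match, chr15:78572844-78572850, plus strand: ctagcacatgaTGAATGTaaagttggcac

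HSF1 binds triplets GAA and TTC that alternate with 2 bases (NN) between them, so the promoters were searched on both strands for 3 such triplets in a row, TTC-NN-GAA-NN-TTC or GAA-NN-TTC-NN-GAA. The RefSeq windows of 250 bases before to 50 bases after the start (GRCh38.p14) were at hand for 41 members. The element of 3 triplets was found in 4 of them, CHORDC1, DNAJA1, DNAJB6 and HSPA8, 9.8% beside 0.49% of 27305 promoter windows. The shorter form of 2 triplets (TTC-NN-GAA or GAA-NN-TTC), which the longer one contains, was found in 10 of the 41, 24.4% beside 13.69% of all windows. One stretch a gene is printed, with matched bases in capitals and the 300-base window it lies in. For HSPA8 it holds the first of 2 elements, and for CHORDC1, where 3 overlap, it ends within the last.
CHORDC1, minus strand, window chr11:90223000-90223299: cgcgaccgGAAAATTCGCGAAGGTTCCTG
DNAJA1, plus strand, window chr9:33025023-33025322: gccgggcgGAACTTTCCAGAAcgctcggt
DNAJB6, plus strand, window chr7:157336754-157337053: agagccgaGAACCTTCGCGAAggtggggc
HSPA8, minus strand, window chr11:123062087-123062386: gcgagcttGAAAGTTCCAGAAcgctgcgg

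The libraries held 31379962 to 50526442 counts (median 39878595), and the 47 members took 1.13% to 1.65% of them. Epithelial keratins and EPCAM were present in every library (KRT8 2243 to 5032, EPCAM 144 to 198 normalized CPM), ESR1 at 71.4 to 291 CPM. PTPRC and PECAM1, markers of leukocytes and endothelium, did not exceed 6 counts in any library, whereas the fibroblast collagen COL1A1 stood at 47.3 to 81.0 CPM in all of them. In bulk RNA a change in a part of the cells and a change in the RNA of every cell cannot be told apart. The 2 libraries of a condition differed by 11.2 to 48.3 times the counting noise (mean chi-square per gene), so none was a second copy of another. Levels are CPM, counts scaled to a common library size, after TMM normalization over all libraries. Differences are log2 fold changes ± SE from edgeR's quasi-likelihood test of 2 against 2 libraries, and a member was said to rise or fall where the Benjamini-Hochberg adjusted p over all tested genes was under 0.05. An exact permutation test of 2 against 2 could not go below p = 0.333. All 47 members were expressed highly enough to be tested in every comparison. Because the same clones were used in every treatment, each count is also given from the fit with the clone as a block, and, because differences moved with the GC content of the transcript, from the fit that also carried a GC-dependent offset.

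In WT cells given the negative control, HSPB1, HSPA8 and both cytosolic HSP90 genes were the most abundant members. Per kilobase of transcript, HSPB1 (HSP27) stood at 1466 CPM, HSPA8 (HSC70, the constitutive cytosolic HSP70) at 1096, HSP90AB1 at 668 and HSP90AA1 at 640. The next were PTGES3 at 233, STIP1 at 180, DNAJB11 at 134 and HSPD1 at 132 CPM per kilobase. The other small heat shock proteins, HSPB8 and CRYAB, stood at 66.7 and 5.65 CPM per kilobase. The stress-inducible HSPA1A and HSPA1B stood at 6.22 and 0.77 CPM per kilobase, and the testis-enriched HSPA2 was lowest at 0.34. The order of HSP90AB1 and HSP90AA1 and of DNAJB11 and HSPD1 rested on differences of a few percent between genes of different length and is not read as a difference. HSPA1A and HSPA1B are near-identical copies whose reads the counting could split or drop, and HSPE1, at 38.0 CPM per kilobase beside 132 for its partner HSPD1, has many processed copies in the genome, so the levels of these 3 genes are uncertain.

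Members were more often higher than lower in the mutant clones. Given the negative control, 25 of the 47 were higher in D538G than in WT cells and 4 were lower, beside 20.4% of 14942 tested genes higher and 18.5% lower. In Y537S cells 14 were higher and 4 lower, beside 16.3% and 12.7% of 15106 genes. The median log2 difference of the members was 0.23 in D538G and 0.20 in Y537S cells, and that of all genes tested was 0.00 in both. Of the members, 12 were higher in both mutants and 3 lower in both. Both comparisons used the same WT libraries, so agreement between them is not independent, and the share over all genes was not counted. In cells given the miR-301b mimic, a second set of libraries from the same clones, 14 were higher and 3 lower in D538G, beside 16.1% and 15.3% of 15254 genes, and 9 higher and 3 lower in Y537S, beside 12% and 8.37% of 15406. A GC-dependent offset gave 25 and 4 in D538G and 16 and 4 in Y537S. The Y537S count fell to 5 without WT clone D1 and to 6 without WT clone D4, and the D538G count was 22 to 28 when each library was left out in turn.

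**Figure D1:**
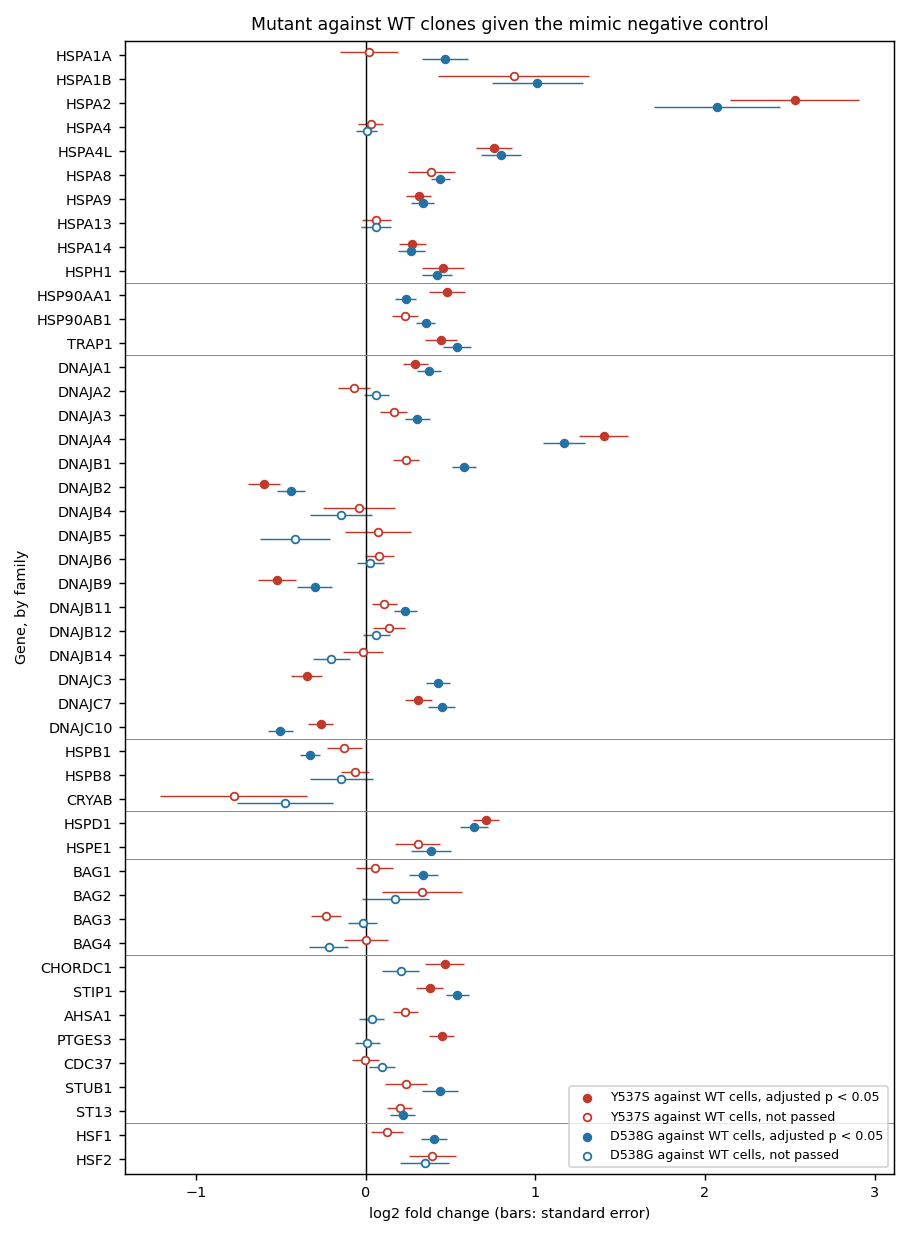
Log2 fold change of each member, by family, in Y537S (red) and D538G (blue) against WT cells given the mimic negative control; points are edgeR estimates, bars standard errors, filled points passed the adjusted threshold. HSP70, HSP90 and chaperonin members lie mostly to the right of 0, and DNAJB2, DNAJB9 and DNAJC10 to the left in both mutants.

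Among HSP70 members the largest difference was that of HSPA2. Its level was 0.575 and 1.14 CPM in the WT clones, 5.12 and 4.58 in the Y537S clones and 3.64 and 3.55 in the D538G clones. The groups did not overlap, and HSPA2 was higher by 2.53 ± 0.38 in Y537S (edgeR adjusted p = 0.00324) and by 2.07 ± 0.37 in D538G (edgeR adjusted p = 0.00214), at a low level throughout. HSPA4L, an HSP110-type nucleotide exchange factor, stood at 36.1 and 35.4 CPM in WT, 63.2 and 55.1 in Y537S and 54.5 and 69.5 in D538G cells, again without overlap (0.76 ± 0.11 and 0.80 ± 0.12). Its relative HSPH1 (HSP105) was higher by 0.46 ± 0.12 and 0.42 ± 0.09, the mitochondrial HSPA9 (mortalin) by 0.31 ± 0.07 and 0.34 ± 0.07, and HSPA14 by 0.27 ± 0.08 in both. HSPA8 was 2459 and 2502 CPM in WT, 3279 and 3433 in D538G (0.44 ± 0.06, passed) and 2706 and 3643 in Y537S cells. The Y537S clones lay far apart, and their difference of 0.39 ± 0.14 did not pass (edgeR adjusted p = 0.0731). With DESeq2 it passed (DESeq2 adjusted p = 0.00805). HSPA1A (0.47 ± 0.14) and HSPA1B (1.01 ± 0.27) were higher in D538G cells. HSPA4 and HSPA13 differed by at most 0.06 in either mutant and did not pass.

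HSPD1, TRAP1 and HSPA9, which act in mitochondria, were higher in both mutants. HSPD1 (HSP60) stood at 290 and 303 CPM in WT, 462 and 486 in Y537S and 423 and 497 in D538G cells, so the mutants did not overlap WT. Its log2 difference was 0.71 ± 0.08 in Y537S (edgeR adjusted p = 0.000812) and 0.64 ± 0.08 in D538G (edgeR adjusted p = 0.000429). HSPE1 (HSP10), with the uncertainty given above, was higher in D538G (0.38 ± 0.12) and did not pass in Y537S (0.30 ± 0.14). TRAP1, the mitochondrial HSP90, was higher by 0.44 ± 0.10 and 0.54 ± 0.08. With HSPA9 and the J-protein DNAJA3, 5 members act in mitochondria, of which 5 were higher in D538G and 3 in Y537S cells. DNAJA3 differed by 0.30 ± 0.08 in D538G and by 0.16 ± 0.08 in Y537S, the latter not passed. Of all 47 members 53.2% were higher in D538G and 29.8% in Y537S, beside 20.4% and 16.3% of all genes. The grouping by compartment was made after the values were seen.

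Cytosolic HSP90 and its cochaperones followed the mutants in part. HSP90AA1, the inducible isoform, was higher by 0.48 ± 0.10 in Y537S and 0.23 ± 0.06 in D538G. HSP90AB1, the constitutive isoform, was higher by 0.35 ± 0.06 in D538G and did not pass in Y537S (0.23 ± 0.08). With DESeq2 HSP90AB1 passed in Y537S as well (DESeq2 adjusted p = 0.0259). STIP1 was 369 and 400 CPM in WT, 488 and 489 in Y537S and 550 and 564 in D538G cells, and passed in both (0.38 ± 0.08 and 0.54 ± 0.07). PTGES3 and CHORDC1, the latter an HSP90-binding protein, were higher in Y537S (0.45 ± 0.08 and 0.46 ± 0.12), and in D538G their differences were 0.01 ± 0.07 and 0.20 ± 0.11 and did not pass. CHORDC1 stood at 119 and 147 CPM in Y537S cells given the mimic control, beside 103 and 93.7 in WT cells. In Y537S cells given the inhibitor control, which WT cells did not receive, CHORDC1 was at 93.8 and 104 CPM. PTGES3 was at 602 and 622 CPM there, beside 445 and 441 in WT cells given the mimic control. STUB1 (0.44 ± 0.11), ST13 (0.22 ± 0.07), BAG1 (0.34 ± 0.09) and HSF1 (0.40 ± 0.08) were higher in D538G and did not pass in Y537S cells. AHSA1, CDC37, BAG2, BAG3, BAG4 and HSF2 passed in neither. With the GC offset AHSA1 passed in Y537S (0.25, edgeR adjusted p = 0.0295).

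The J-proteins went both ways. DNAJA4, a cytosolic class A J-protein, stood at 30.4 and 25.5 CPM in WT, 80.6 and 64.2 in Y537S and 56.6 and 68.6 in D538G cells, higher by 1.40 ± 0.14 (edgeR adjusted p = 0.000634) and 1.17 ± 0.12 (edgeR adjusted p = 0.000118). DNAJA1 and DNAJC7 were higher in both mutants, and DNAJB1 (HSP40, the partner of inducible HSP70) in D538G, at 160 and 156 beside 107 and 106 CPM. In Y537S cells DNAJB1 did not pass (0.24 ± 0.08), but did with the GC offset (0.27, edgeR adjusted p = 0.0282). DNAJB2 stood at 91.3 and 101 CPM in WT, 60.1 and 64.0 in Y537S and 69.5 and 71.5 in D538G cells, lower by 0.60 ± 0.09 and 0.44 ± 0.08 on the log2 scale. DNAJB9 and DNAJC10, J-proteins of the endoplasmic reticulum (ER lumen), were lower in both, by 0.52 ± 0.11 and 0.30 ± 0.10 for DNAJB9 and 0.27 ± 0.07 and 0.50 ± 0.07 for DNAJC10. The call of DNAJB9 in D538G was lost with DESeq2 (DESeq2 adjusted p = 0.0647). DNAJB11, another lumenal J-protein, was higher in D538G (0.23 ± 0.07) and did not pass in Y537S (0.11 ± 0.07). Of 4 lumenal chaperone genes listed outside the set, 4 were lower in Y537S and 3 in D538G, beside 12.7% and 18.5% of all genes. In Y537S and D538G, HSP90B1 differed by -0.66 ± 0.10 and -0.95 ± 0.07, and HSPA5 (BiP) by -0.49 ± 0.08 and -0.38 ± 0.06. HYOU1 differed by -0.26 ± 0.08 and -0.23 ± 0.07, and SIL1 by -0.39 ± 0.09 and by -0.17 ± 0.08, the latter not passed. The 4 were picked by compartment from 55 listed genes after the values were seen. Of 5 members of the set that act in the endoplasmic reticulum, 0 were higher and 3 lower in Y537S, and 2 higher and 2 lower in D538G. Among small heat shock proteins HSPB1 was lower in D538G, at 899 and 909 beside 1134 and 1144 CPM (-0.33 ± 0.06), and HSPB8 and CRYAB (alpha-B crystallin) passed in neither mutant.

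DNAJC3 (p58IPK, a lumenal J-protein) went opposite ways in the mutants. It stood at 117 and 111 CPM in WT, 82.5 and 92.8 in Y537S and 156 and 149 in D538G cells, so the 3 genotypes did not overlap. It was lower in Y537S (-0.35 ± 0.09, edgeR adjusted p = 0.0257) and higher in D538G cells (0.42 ± 0.07, edgeR adjusted p = 0.00159). In a direct test of Y537S against D538G cells, added after these values were seen, DNAJC3 was lower in Y537S by 0.78 ± 0.10 (edgeR adjusted p = 0.00837), and PTGES3 was higher by 0.43 ± 0.09 (edgeR adjusted p = 0.0355). These were the 2 members that passed it, 1 up and 1 down, beside 3.93% of 14935 genes up and 2.26% down. Without D538G clone A5 or without C2 0 members were higher and 1 was lower, and without Y537S clone 1 or clone 2 5 members passed. After the miR-301b mimic DNAJC3 was at 113 and 117 CPM in Y537S beside 153 and 140 in WT cells, again without overlap, and after the miR-331 mimic at 108 and 114 beside 133 and 139. It stood at 112 and 115 CPM in Y537S cells given the inhibitor negative control, which WT cells did not receive.

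The 2 negative controls of Y537S cells were compared as well, also after the values were seen. No member passed (0% of 15063 genes up and 0% down, with 5 members at an unadjusted p under 0.05 and 0 members by DESeq2). With the clone as a block, 14 members and 16.7% of all genes passed, 5 up and 9 down. The largest of these changes, inhibitor against mimic control, were those of CHORDC1 (-0.42), DNAJC3 (0.37), HSPA4L (-0.37) and STUB1 (0.36). The mimic comparisons and those of Y537S with WT cells therefore rest on the mimic control, and the let-7f comparison on the inhibitor control.

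The clones of a genotype also differed in these genes. In Y537S cells, 15 of 47 members were higher in clone 2 than in clone 1 in all 5 conditions and 6 were lower in all 5, beside 19.5% and 23.9% of 13009 genes with a mean of at least 1 CPM. The 15 were HSPA1A, HSPA8, HSPA9, HSPH1, HSP90AA1, HSP90AB1, HSPB1, HSPB8, DNAJA2, DNAJB1, DNAJB2, DNAJB4, DNAJB11, CHORDC1 and CRYAB. The HSF1-inducible HSPA1B and BAG3 were higher in clone 2 in only 3 of the 5 conditions, and DNAJA1 was lower in all 5. Clone 2 exceeded clone 1 by a median log2 ratio of 0.42 for HSPA8, 0.38 for HSPA1A, 0.36 for HSPH1 and 0.27 for HSPB1. CRYAB had a median of 0.78, and DNAJA4 ran the other way (median -0.33). In D538G cells 22 members were higher in C2 in all 3 conditions and 5 lower, beside 25.1% and 22.4% of 12937 genes, with HSPB8 higher in C2 by 0.59 to 0.73 on the log2 scale. In WT cells 4 members were higher in D4 in all 4 conditions and 6 lower, beside 13.5% and 12.0%. These orders are a description, since the libraries of a clone share their source.

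Treatments moved 33 of the 47 members past the threshold in at least 1 of the 8 comparisons, 17 of them up, 16 down and 0 in both directions, beside 53.5% of 14071 genes tested in all 8. The mimic comparisons of a genotype share their control libraries, so their values are given side by side and are not independent.

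**Figure D2:**
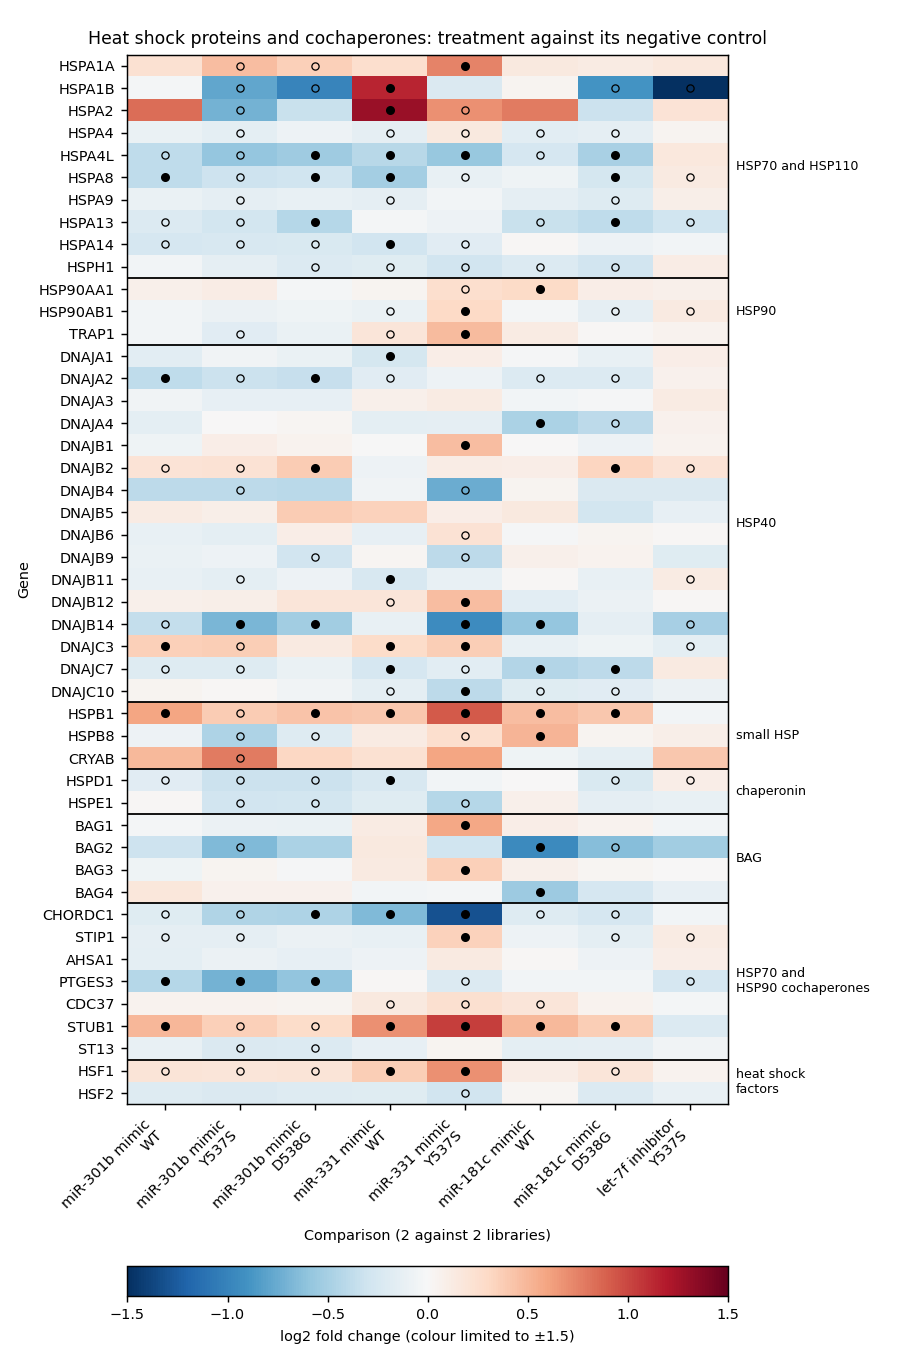
Log2 fold change of each member (rows, by family) in the 8 treatment comparisons (columns), red for higher and blue for lower than the negative control; filled dots passed without a block, open dots only with the clone as a block. HSPB1 carries a filled dot in 6 of 8 columns and PTGES3 in the 3 miR-301b columns.

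The miR-301b mimic lowered PTGES3 in all 3 genotypes. PTGES3 fell from 445 and 441 CPM to 355 and 305 in WT cells, from 575 and 608 to 349 and 384 in Y537S cells, and from 420 and 469 to 309 and 281 in D538G cells. The treated and control libraries did not overlap in any genotype. The changes were -0.43 ± 0.09 in WT (edgeR adjusted p = 0.0224), -0.71 ± 0.09 in Y537S (edgeR adjusted p = 0.0255) and -0.59 ± 0.09 in D538G (edgeR adjusted p = 0.00625). With block and GC offset they were -0.24, -0.51 and -0.37 and all passed. Without control clone D4 in WT, or control clone 1 or clone 2 in Y537S, PTGES3 kept its direction and did not pass. PTGES3 holds the miR-301b match printed above, 712 bases into a 3′UTR of 1130.

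HSPA8, which also holds a match, was 1861 and 1957 CPM after the mimic in WT cells beside 2459 and 2502 (-0.39 ± 0.06, edgeR adjusted p = 0.00973). In D538G cells it was 2623 and 2814 beside 3279 and 3433 (-0.30 ± 0.07, edgeR adjusted p = 0.0279). Neither pair of groups overlapped, and HSPA8 fell in both. In Y537S cells HSPA8 was 2298 and 2903 beside 2706 and 3643, where the clones overlapped, and its -0.31 ± 0.17 passed only with the clone as a block (edgeR adjusted p = 1.64e-07). The call was lost without control C2 in D538G, and without D1 or D4 of the control in WT. DNAJC3, with a match 3680 bases into its 3′UTR, went the other way: it rose in WT cells from 117 and 111 to 153 and 140 CPM (0.36 ± 0.08, not passed without control D1 or control D4), and was at 113 and 117 beside 82.5 and 92.8 in Y537S cells (0.37, passed with the block). DNAJA1 and HSPA2, the other members with a match, passed in no genotype without the block. Over the 5 members with a match the median change was -0.31 in Y537S, -0.30 in D538G and -0.16 in WT cells, beside -0.13, -0.10 and -0.07 over the 42 without. Over all genes the medians were -0.15, -0.14 and -0.15 with a match and 0.03, 0.03 and 0.03 without.

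**Figure D3:**
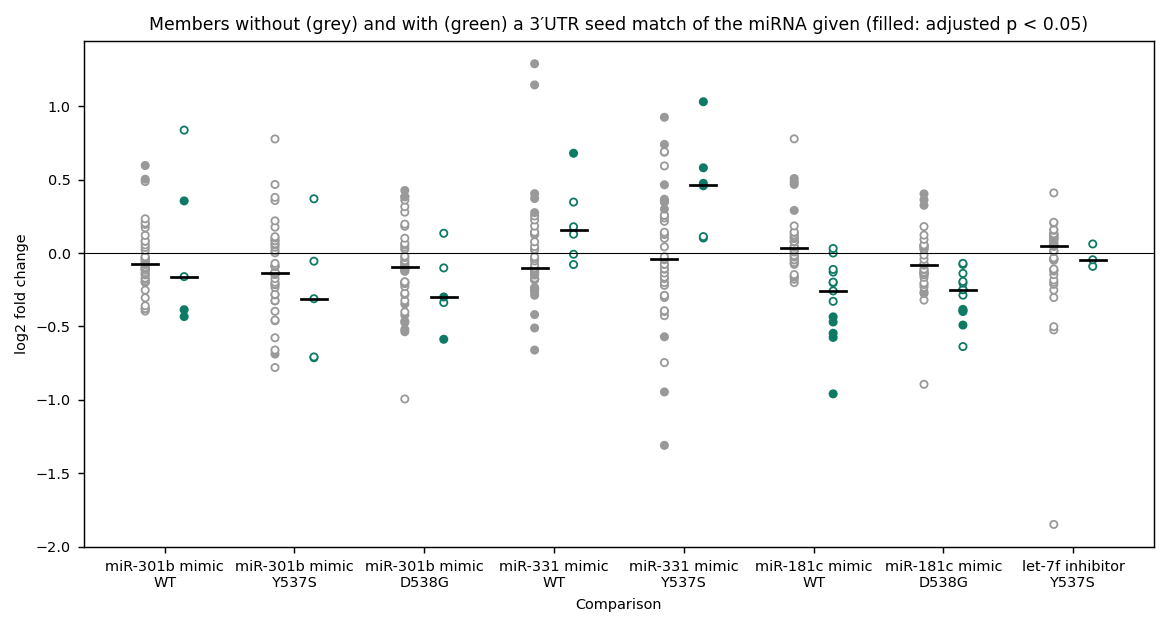
Log2 fold change of each member in the 8 comparisons, split by whether its 3′UTR held a seed match of the microRNA given (green) or not (grey); black bars are medians and filled points passed. Members with a miR-181c match lie mostly below those without, whereas the 6 members with a miR-331 match lie above 0 in Y537S cells.

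Other members fell with the miR-301b mimic without a match. DNAJA2 fell in WT (-0.38 ± 0.08) and D538G cells (-0.35 ± 0.09), and DNAJB14, an ER-membrane J-protein, in Y537S (-0.69 ± 0.12) and D538G cells (-0.52 ± 0.10). In D538G cells HSPA4L (-0.54 ± 0.12), CHORDC1 (-0.46 ± 0.11) and HSPA13 (-0.42 ± 0.10) fell too. These 5 genes have AT-rich transcripts (DNAJB14 32.5%, CHORDC1 34.3%, HSPA13 34.5%, HSPA4L 37.5% and DNAJA2 40.1% GC). With block and GC offset the D538G changes of DNAJB14, CHORDC1 and HSPA13 were -0.03, -0.03 and -0.00 and did not pass, and HSPA4L was at -0.22 and passed. DNAJA2 was then at -0.13 in D538G and -0.19 in WT cells and passed in neither. HSPB1 rose in WT cells from 1134 and 1144 to 1750 and 1714 CPM (0.60 ± 0.06) and in D538G cells from 899 and 909 to 1114 and 1307 (0.43 ± 0.09). STUB1 rose in WT cells (0.50 ± 0.11) and DNAJB2 in D538G cells (0.38 ± 0.09). These 3 have GC-rich transcripts (65.3%, 63.9% and 61.3%), as does HSF1 (63.9%), which passed in none of the 3 genotypes. With block and GC offset HSPB1 stood at 0.22 in WT and 0.07 in D538G.

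In all, the miR-301b mimic raised 0 and lowered 2 members in Y537S cells, beside 1.23% and 2.34% of 15145 genes. It raised 2 and lowered 7 in D538G cells, beside 5.29% and 6.49% of 14845, and raised 3 and lowered 3 in WT cells, beside 4.63% and 3.87% of 15113. The members' median change was -0.13, -0.10 and -0.08 beside 0.01, 0.01 and 0.00 over all genes. Of the 8 HSF1-inducible members, HSPB1 rose in WT and D538G cells, CHORDC1 fell in D538G cells, and HSPA1A, HSPA1B, HSPH1, DNAJB1, HSP90AA1 and BAG3 passed in none of the 3. With the clone as a block, 29 members passed in Y537S (7 up, 22 down, beside 38.4% of all genes), 20 in D538G (5 up, 15 down, beside 33.3%) and 16 in WT (5 up, 11 down, beside 28.2%). With the GC offset alone 0, 0 and 4 passed, and with both 19, 15 and 13. The Y537S count fell to 0 without control clone 1 or clone 2, the D538G count to 3 without control C2, and the WT count to 2 without control D1 or D4.

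**Figure D4:**
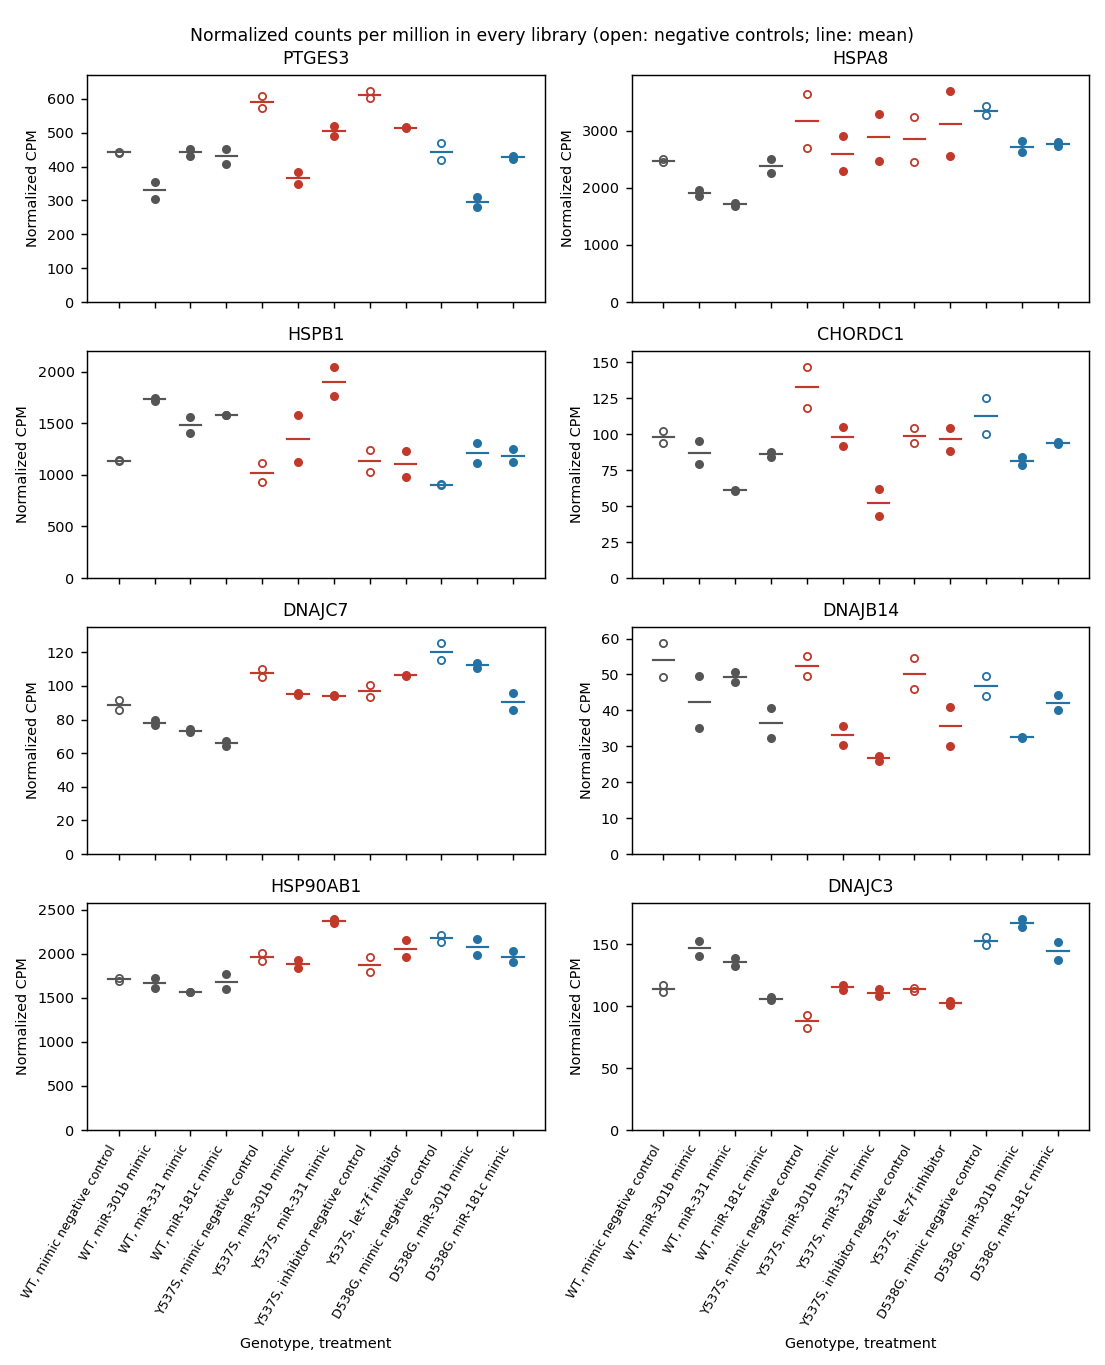
Normalized CPM of 8 members in every library, by genotype and treatment (WT grey, Y537S red, D538G blue; open points are negative controls, lines are means of 2 clones). PTGES3 drops in each miR-301b group, CHORDC1 in both miR-331 groups and DNAJC7 in both miR-181c groups, while HSPB1 is above its control in every mimic group.

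The miR-331 mimic gave the widest changes. In Y537S cells 12 members rose and 4 fell, beside 17.2% and 15.8% of 14877 genes, and in WT cells 6 rose and 8 fell, beside 14.2% and 10.6% of 15140. The median of the members was 0.10 in Y537S and -0.05 in WT cells, and that of all genes -0.01 and 0.00. With the clone as a block 31 passed in Y537S (18 up, 13 down, beside 60.7%) and 23 in WT (9 up, 14 down, beside 37%). With block and GC offset 26 passed in Y537S, 23 up and 3 down, and 14 in WT, 10 up and 4 down. The GC offset without a block left 7 in each genotype. The Y537S count was 8 without control clone 1, 7 without control clone 2 and 7 without miR-331 clone 1, and the WT count 6 without miR-331 D1 and 8 without miR-331 D4.

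CHORDC1 fell most. It went from 119 and 147 to 42.8 and 62.0 CPM in Y537S cells (-1.31 ± 0.21, edgeR adjusted p = 0.0103) and from 103 and 93.7 to 61.6 and 60.4 in WT cells (-0.66 ± 0.07, edgeR adjusted p = 0.000176). The treated libraries lay below the controls in both genotypes, CHORDC1 holds no miR-331 match, and with block and GC offset it still fell by 0.64 and 0.42 on the log2 scale. HSPA8 fell in WT cells from 2459 and 2502 to 1686 and 1738 CPM (-0.51 ± 0.05, edgeR adjusted p = 0.000119), and its change in Y537S cells was -0.11. DNAJB14 fell in Y537S cells from 49.6 and 55.1 to 25.9 and 27.3 CPM (-0.95 ± 0.11, and -0.15 with block and GC offset, not passed). HSPA4L fell in both genotypes, DNAJC10 (-0.40 ± 0.09) in Y537S cells, and HSPA14, DNAJA1, DNAJC7, HSPD1 and DNAJB11 by 0.23 to 0.29 in WT cells.

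STUB1 rose in Y537S cells from 33.2 and 28.9 to 66.8 and 57.6 CPM (1.03 ± 0.12, edgeR adjusted p = 0.00665) and in WT cells from 25.5 and 28.2 to 40.9 and 43.6 (0.68 ± 0.09, edgeR adjusted p = 0.000578). It rose although its 3′UTR holds the match printed above, 29 bases past the stop codon, and with block and GC offset it stood at 0.65 and 0.26. HSPB1 rose in Y537S cells from 927 and 1115 to 1763 and 2042 CPM (0.93 ± 0.13, edgeR adjusted p = 0.00808). In WT cells HSPB1 was 1558 and 1405 beside 1134 and 1144 (0.40 ± 0.06), where it turned to -0.08 with block and GC offset and did not pass. HSF1 rose by 0.69 ± 0.12 in Y537S cells and by 0.37 ± 0.07 in WT cells, and in WT it too turned, to -0.05 with block and GC offset, not passed. In Y537S cells HSPA1A rose from 13.4 and 16.2 to 21.8 and 26.7 CPM (0.74 ± 0.18), BAG1 from 70.3 and 60.3 to 108 and 83.8 (0.58 ± 0.15), DNAJB1 from 120 and 125 to 160 and 170 (0.46 ± 0.09) and HSP90AB1 from 1913 and 2014 to 2354 and 2389 (0.30 ± 0.07). STIP1 (0.35 ± 0.08), TRAP1 (0.48 ± 0.10), DNAJB12 (0.47 ± 0.10), BAG3 (0.36 ± 0.09) and DNAJC3 (0.37 ± 0.11) rose as well, of which BAG3 was at 0.10 with block and GC offset and did not pass. Of the 8 HSF1-inducible members fixed for naming, 4 rose (HSPA1A, DNAJB1, HSPB1 and BAG3), CHORDC1 fell, and HSPA1B, HSPH1 and HSP90AA1 did not pass.

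In WT cells HSPA2 rose from 0.575 and 1.14 to 2.25 and 1.87 CPM (1.29 ± 0.40), losing its call without the control D1, miR-331 D1 or miR-331 D4 library, and DNAJC3 rose by 0.28 ± 0.06. HSPA1B rose from 1.75 and 2.11 to 3.99 and 4.41 CPM (1.15 ± 0.25). With HSPA1A and HSPA1B summed, because reads may be split between the copies, the change was 0.39 ± 0.11 in WT (edgeR adjusted p = 0.0276) and 0.60 ± 0.22 in Y537S cells (edgeR adjusted p = 0.0900), so the sum passed in WT only. Over the 6 members with a miR-331 match, 4 rose in Y537S and 1 in WT cells and 0 fell in either, with medians of 0.47 and 0.15 beside -0.04 and -0.10 over the 41 without. Over all genes those with a match had medians of 0.14 and 0.06, and those without 0.00 and -0.01. How many of all genes with a match rose or fell was not counted. Transcripts of the 6 members with a match had 48.7% (BAG1) to 63.9% GC (STUB1). Across the 47 members the correlation of change with GC content was 0.77 in Y537S and 0.59 in WT cells. Whether GC content took part in the split by match was not tested.

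The response to miR-331 differed between the genotypes for 4 members, 8.51% of the set beside 9.94% of 15666 genes. The difference of responses, Y537S minus WT, was 0.45 ± 0.10 for DNAJB1 (edgeR adjusted p = 0.0271), 0.38 ± 0.09 for HSP90AB1 (edgeR adjusted p = 0.0320) and 0.44 ± 0.10 for STIP1 (edgeR adjusted p = 0.0335). In WT cells these 3 genes were at 103 and 105, 1571 and 1561, and 346 and 355 CPM after the mimic, near or under their controls of 107 and 106, 1690 and 1725, and 369 and 400. DNAJB14 differed by -0.85 ± 0.15 (edgeR adjusted p = 0.0137): after the mimic it was at 50.6 and 47.8 CPM in WT cells beside 58.7 and 49.4. Under the clone block 23 members passed, beside 34.1% of all genes, and HSPA8 was among them (0.39). With the GC offset and no block 0 passed. For the miR-301b mimic the response differed in 0 members in Y537S (0.00632% of 15814 genes) and in 0 in D538G (0.0064% of 15613), and for miR-181c in 0 in D538G (0.00646% of 15482). In these 3 comparisons 1, 1 and 2 members had an unadjusted p under 0.05, and DESeq2 called 0. With the block HSPB8 alone passed for miR-181c (-0.45, edgeR adjusted p = 0.0290).

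Most members that fell under the miR-181c mimic held its match. In WT cells 4 members rose and 5 fell, beside 8.1% and 8.28% of 14968 genes, and each of the 5 that fell (BAG2, BAG4, DNAJA4, DNAJB14 and DNAJC7) holds a match. In D538G cells 3 rose and 4 fell, beside 5.58% and 3.95% of 14826, and 3 of the 4 that fell (DNAJC7, HSPA13 and HSPA4L, with HSPA8 the exception) hold one. None of the 13 members with a match rose. How many of all genes that rose or fell held a match was not counted, so these counts are not read as particular to the members. Transcripts of the 5 that fell in WT cells had 32.5% (DNAJB14) to 48.4% GC (DNAJA4). Across the 47 members the correlation of change with GC content was 0.58 in WT and 0.45 in D538G cells. Whether GC content took part in the split by match was not tested. The median change of the 13 members with a match was -0.26 in WT and -0.25 in D538G cells, beside 0.03 and -0.08 over the 34 without. Over all genes the medians were -0.18 and -0.15 with a match and 0.07 and 0.04 without. With the clone as a block 17 passed in WT (5 up, 12 down, beside 27.9%) and 20 in D538G (4 up, 16 down, beside 29.3%). The 12 and 16 that fell then included 9 and 8 with a match. The GC offset left 5 in WT and 0 in D538G, and offset with block 15 and 12. The WT count fell to 3 without control D1, and the D538G count to 1 without control C2 or miR-181c C2 and to 2 without miR-181c A5.

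DNAJC7 (TPR2, a J-protein that binds both HSP70 and HSP90) was the member lowered in both genotypes. It went from 85.6 and 91.6 to 67.5 and 64.3 CPM in WT cells (-0.43 ± 0.08, edgeR adjusted p = 0.00555) and from 115 and 125 to 85.4 and 95.8 in D538G cells (-0.40 ± 0.09, edgeR adjusted p = 0.0225). The groups did not overlap, and with block and GC offset it stood at -0.34 and -0.29 and passed. Its call in D538G cells was lost without control C2 or miR-181c A5. Its match lies 53 bases into a 3′UTR of 298. DNAJA4 went from 30.4 and 25.5 to 22.3 and 18.2 CPM in WT (-0.47 ± 0.13) and from 56.6 and 68.6 to 42.4 and 52.3 in D538G cells (-0.39, passed only with the block), and with block and GC offset stood at -0.44 and -0.33. BAG4, an anti-apoptotic BAG protein that binds HSP70, went from 30.7 and 26.3 to 18.8 and 20.4 CPM in WT (-0.55 ± 0.11), and BAG2, which inhibits STUB1, from 5.75 and 6.29 to 2.48 and 3.74 (-0.96 ± 0.25). HSPA4L (-0.49 ± 0.12) and HSPA13 (-0.38 ± 0.09) fell in D538G cells.

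HSPB1 rose again, to 1583 and 1583 CPM in WT (0.47 ± 0.06) and to 1125 and 1248 in D538G cells (0.40 ± 0.07), and STUB1 rose by 0.49 ± 0.10 and 0.36 ± 0.10. With block and GC offset these were 0.12 and 0.03 for HSPB1 and 0.17 and 0.03 for STUB1, of which only HSPB1 in WT passed. HSPB8, a small heat shock protein that works with BAG3 in autophagy, went from 130 and 118 to 191 and 164 CPM in WT cells (0.51 ± 0.09, and 0.45 with block and GC offset), whereas in D538G cells it was 89.4 and 140 beside 84.2 and 140. HSP90AA1 rose in WT cells from 2078 and 2051 to 2674 and 2401 CPM (0.29 ± 0.07). Outside the set, the lumenal chaperones HSPA5 (-0.68 ± 0.08 in WT, -0.58 ± 0.06 in D538G) and HSP90B1 (-0.62 ± 0.09 and -0.55 ± 0.07) fell in both. HYOU1 and SIL1 are not described for this mimic, so the 2 falls are not read as a change of lumenal chaperones as a group. Of the 55 listed genes outside the set, 47 were tested in each genotype. In WT cells 2 rose and 9 fell, beside 8.1% and 8.28% of all genes. In D538G cells 1 rose and 6 fell, beside 5.58% and 3.95%. The lumenal J-proteins of the set, DNAJB9, DNAJB11, DNAJC3 and DNAJC10, passed in neither genotype without the block.

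The let-7f inhibitor moved no member past the threshold in Y537S cells in the edgeR fit without the block, which called no gene at all. None of the 47 passed (0% of 15140 genes up and 0% down), 5 members had an unadjusted p under 0.05, and DESeq2 called 1, HSPA1B (DESeq2 adjusted p = 0.000869). The members' median change was 0.05 beside 0.00 over all genes. Under the clone block 11 passed, 6 up and 5 down, beside 11.2% of all genes, and with block and GC offset 13. HSPA1B was 1.47 and 1.12 CPM beside 4.81 and 4.53 in the inhibitor control (-1.85 ± 0.27, edgeR adjusted p = 0.751 without and 3.89e-05 with the block), and the summed HSPA1A and HSPA1B differed by -0.10 ± 0.24. DNAJB14 was 41.0 and 30.1 beside 54.7 and 45.8 CPM (-0.50 ± 0.18), HSPA13 60.5 and 62.8 beside 76.5 and 75.4 (-0.30 ± 0.07), PTGES3 516 and 514 beside 602 and 622 (-0.25 ± 0.06) and DNAJB2 73.6 and 77.5 beside 64.4 and 66.0 (0.21 ± 0.07). In each of these the groups did not overlap and the call came only with the block. BAG1, DNAJA2 and DNAJC10, the members with a let-7f match, passed under neither fit.

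Changes under the mimics moved with the base composition of the transcript. Across the 47 members the correlation of log2 fold change with GC content was 0.77 for miR-331 in Y537S cells and 0.45 to 0.59 in the other 6 mimic comparisons, and 0.06 for the let-7f inhibitor. Over 13111 to 13370 tested genes with an annotated 3′UTR it was 0.37 to 0.54 for the mimics and 0.16 for let-7f. These are descriptions across genes, which share the libraries and, within a genotype, the controls. After the GC offset the correlations across members lay between -0.28 and 0.09. Whether GC content took part in the rise of HSPB1, STUB1 and HSF1 was not tested, because the offset was fitted to these same libraries. With block and offset the 3 genes stood at 0.53, 0.65 and 0.30 in Y537S cells given miR-331, and passed. In WT cells given miR-331 HSPB1 and HSF1 then took the opposite sign and did not pass, while STUB1 stayed positive.

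**Figure D5:**
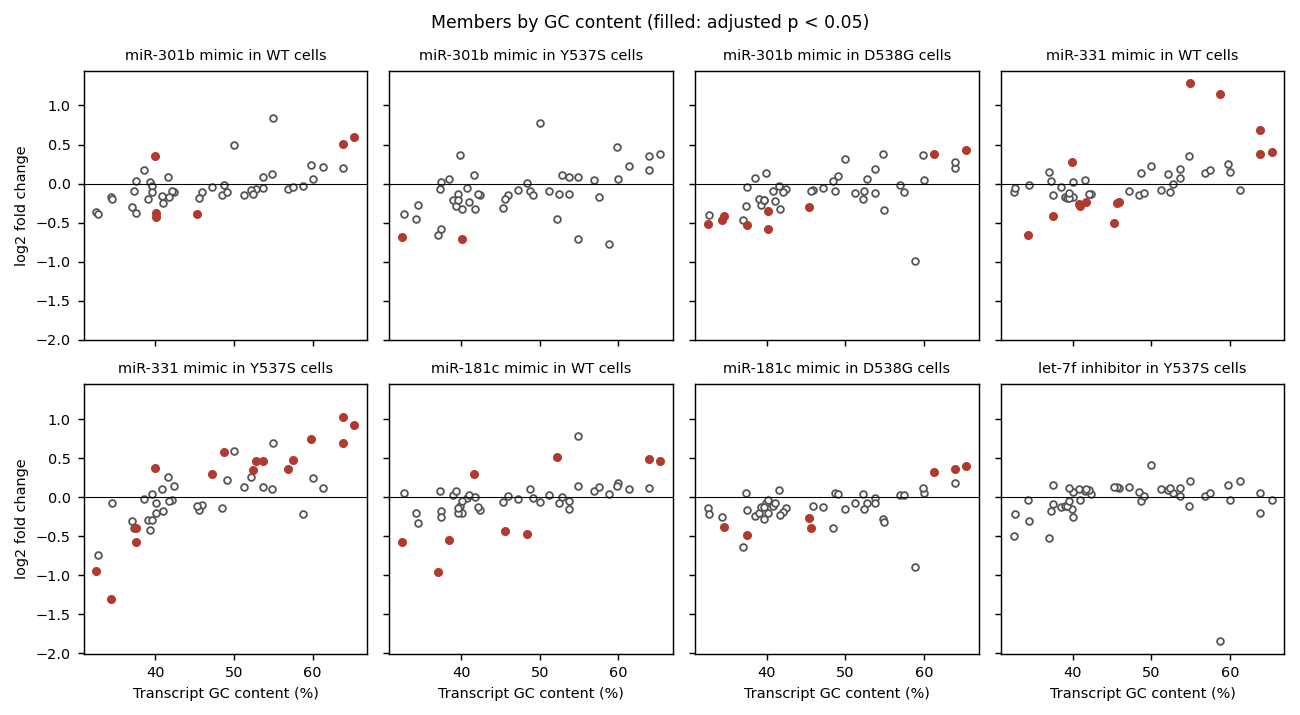
Log2 fold change of the 47 members against the GC content of their transcript, 1 panel for each treatment comparison, filled points passed the adjusted threshold. In the miR-331 panel of Y537S cells the members that fell lie at the AT-rich end and most that rose at the GC-rich end.

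Other chaperone genes were counted beside the set. Of 55 further heat shock and cochaperone genes, 47 to 49 were tested, and 14 were higher and 10 lower in D538G (beside 20.4% and 18.5% of all genes), 9 and 7 in Y537S cells (beside 16.3% and 12.7%), with the HSP90 immunophilin FKBP4 higher by 0.85 ± 0.07 and 1.01 ± 0.08. The 8 subunits of the cytosolic chaperonin TRiC, which folds actin and tubulin, were higher in 6 cases in each mutant and lower in 0. Of the tested prefoldin subunits, which pass clients to TRiC, 1 was higher and 1 lower in D538G, 2 and 1 in Y537S. Under miR-331 3 TRiC subunits rose and 0 fell in Y537S (17.2% and 15.8% of all genes), and 0 rose and 2 fell in WT cells (14.2% and 10.6%). Under miR-301b 1, 1 and 2 subunits fell in Y537S, D538G and WT cells, CCT6A in each, and 0 rose, beside 2.34%, 6.49% and 3.87% of all genes that fell.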

How the data were processed

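RNA was poly-A selected and sequenced by the authors, aligned with HISAT2 to hg19 and counted per gene over UCSC Known Genes with featureCounts of the Subread package; versions, strand setting and handling of multi-mapped reads were not given in the sources used here. The deposited values were whole-number counts for 26364 genes in 3 tables, 31379962 to 50526442 per library. Each treatment was tested against its own negative control within a genotype, and mutants against WT cells, with edgeR 4.0.16 (TMM, filterByExpr, quasi-likelihood F test, Benjamini-Hochberg) in R 4.3.3; DESeq2 1.42.0, other size factors, no filter, all conditions in 1 fit, a block, a lowess GC offset (span 0.3) and leaving out each library were alternatives. Column headings name the clone, which was the block; deviations of the same clone from its group means correlated at 0.12 to 0.47 between treatment and control over 16383 genes, and over the 47 members at 0.77 to 0.89 in Y537S, 0.46 to 0.47 in D538G and -0.31 to -0.03 in WT cells. Without the block, p-values set a difference against the spread between 2 clones, with information on spread shared across genes. With the block, they set it against the spread left after the clone difference was removed. Transcripts, 3′UTRs and GC content came from GENCODE lifted to GRCh37 (hg19), matched by symbol (22494 genes) or older symbol (1363). Clone orders used log2(CPM + 0.5). Genes named were 8 HSF1-inducible and 5 constitutive members in every comparison, up to 4 further called members with the largest changes, and those whose response differed; the members, lists and tests were chosen with earlier results of these data known, and further values were given after they were seen.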

Additional observations from a re-analysis of the deposited data

Results flagged for a closer look

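Members whose change differed between genotypes by a test of the difference itself are listed here, and no cause was tested. For the miR-331 mimic, the response in Y537S cells minus that in WT cells was 0.45 for DNAJB1, 0.38 for HSP90AB1, 0.44 for STIP1 and -0.85 for DNAJB14 on the log2 scale. DNAJC3 was lower in Y537S than in D538G cells given the mimic negative control (-0.78), with opposite signs against WT cells. Conditions held 2 libraries each, too few for a test of single outlying libraries.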

How the results depend on the processing

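Counts of members past the threshold are given in the order of miR-301b in Y537S, D538G and WT cells, miR-331 in Y537S and WT cells, miR-181c in D538G and WT cells and the let-7f inhibitor. They were 2, 9, 6, 16, 14, 7, 9 and 0. With the clone as a block they were 29, 20, 16, 31, 23, 20, 17 and 11. The GC offset gave 0, 0, 4, 7, 7, 0, 5 and 0, and both together 19, 15, 13, 26, 14, 12, 15 and 13. Leaving out each library in turn gave 0 to 2, 3 to 9, 2 to 9, 7 to 12, 6 to 15, 1 to 10, 3 to 9 and 0 to 0. DESeq2 gave 7 for miR-301b in Y537S and 1 for let-7f, 1 fit over all conditions 5 for miR-301b in Y537S, and no filter 14 for miR-181c in D538G. The difference of responses to miR-331, 4 members, became 7 with DESeq2, 23 with the block, 0 with the GC offset and 17 with both. That for miR-301b in Y537S became 2 with both, and that for miR-181c 1 with the block and 1 with both. D538G against WT went from 29 to 17 in cells given the miR-301b mimic and 22 to 28 over left-out libraries. Y537S against WT went from 18 to between 5 and 24, Y537S against D538G from 2 to between 1 and 5. The inhibitor against mimic control went from 0 to 14 with the block and 15 with both, and was 0 to 0 over left-out libraries.

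For miR-331 in WT cells HSPB1 changed sign to -0.0744 with the GC offset and -0.0757 with both, and HSF1 to -0.0488 and -0.0489. The cause of these shifts was not tested. Of 80 results of members named by the rule in processing, other size factors and no filter left 80 on the same side of the threshold. DESeq2 left 78 there and gave no adjusted p for the other 2, HSPA2 under miR-331 in WT cells and CRYAB under miR-301b in Y537S cells. With the GC offset 39 stayed on their side, 39 no longer passed and 2 took the opposite sign. With a library left out, 227 such values stayed on their side and 77 no longer passed.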
